A study of Mus musculus with 17 samples.

Results

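The change in chromatin accessibility from naive B cells (nB) to bone marrow plasma cells (BMPC) was described in B cells deficient for Dnmt3a and Dnmt3b, the enzymes of de novo DNA methylation. The comparison used 4 ATAC-seq libraries of 16 with deposited values, the 2 nB KO and the 2 BMPC KO libraries, and all 66177 regions of the deposited table. KO cells came from Dnmt3afl/fl Dnmt3bfl/fl mice that carried a Cre allele active in the B lineage. Both floxed genes were also carried by the Dnmt3-sufficient littermates without Cre (C), of which 3 nB and 3 BMPC libraries were used for comparison. All mice were young adults on the B6;129S4-Dnmt3atm3.1Enl Dnmt3btm5.1Enl/Mmnc background.

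The nB libraries were B220+ Fas- GL7- cells from lymph nodes of male, unimmunized mice, and the BMPC libraries were CD138+ cells from bone marrow of female mice 30 days after immunization with phycoerythrin (PE) in adjuvant. Each library came from 1 mouse, so cell type, tissue, sex and immunization cannot be told apart in this comparison. The submitters set aside another BMPC KO library for its number of reads in peaks, and it is not analysed here. The 4 germinal center B cell (GCB) KO libraries, PE-binding B220+ Fas+ GL7+ cells of lymph nodes pooled from pairs of mice, are given beside them and were of both sexes. Sorts removed cells positive for CD11b, CD11c, CD90.2 or Ly6-G.

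ATAC-seq measures where a transposase can enter DNA, and so marks promoters and enhancers that are free of tightly packed nucleosomes. A naive B cell keeps enhancers of B cell identity open, among them those of the antigen receptor, antigen presentation and lymph node homing. A plasma cell closes many of these and opens regions near genes for antibody secretion and the unfolded protein response, under transcription factors that include Blimp-1 (Prdm1), IRF4 and XBP1. DNA methylation added de novo by Dnmt3a and Dnmt3b is a mark often found on closed regulatory DNA.

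Values are in RPPM, the reads of a region scaled to the same total of reads in all regions for every library. The nB KO libraries held 6079018 and 5081180 reads in regions and the BMPC KO libraries 8232313 and 5357687, so that 3 reads corresponded to between 0.364 and 0.590 RPPM. Libraries of the same KO cell type had Spearman correlations across regions of 0.973 for both nB and BMPC, and nB against BMPC libraries gave 0.581 to 0.595. The GCB KO libraries were shallower, with 907959 to 2280954 reads. These reads are not counted by molecular identifiers, so limits based on read numbers cover counting error only.

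The labelled cell types were checked against marker genes. Of 59 regions nearest to 7 naive B cell genes, among them Pax5, Ms4a1, Cr2, Fcer2a and Cxcr5, 39 closed and 3 opened, and their summed accessibility was 1173 and 1123 RPPM in nB KO against 330 and 285 RPPM in BMPC KO. Of 75 regions nearest to Prdm1, Xbp1, Irf4, Sdc1, Tnfrsf17 and Slamf7, 26 opened and 9 closed, and their sums were 916 and 904 RPPM in nB KO against 1303 and 1312 RPPM in BMPC KO. For 43 marker genes of T cells, myeloid, erythroid, NK and megakaryocyte cells and B cell progenitors, 15 had no region, and the 110 regions of the others summed to 1069 and 997 RPPM in nB KO and 1193 and 1181 RPPM in BMPC KO. Of these 110 regions, 26 opened and 15 closed. Of the T cell genes Cd3g, Cd8a, Thy1 and Bcl11b had no region, while Cd4 opened at 2 of 3 regions, Cd3d closed at its 1 region and none of 3 regions of Cd3e was called. Of the myeloid genes Lyz2, S100a8 and Ly6g had no region, while Itgam opened at 3 of 9 regions and closed at 1. In sorted populations, fewer cells with an open region and less access per cell cannot be told apart.

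A region was called opened or closed when its BMPC KO and nB KO values differed by 1 or more on the log2(RPPM + 1) scale with a limma adjusted p not above 0.01. By this rule 12172 regions opened, or 18.4% of those tested, and 11178 closed, or 16.9%. An unadjusted p under 0.05 was reached by 36639 regions. In every called region both BMPC KO libraries lay beyond both nB KO libraries, whereas over all regions the libraries did not overlap in 28695 regions with higher and 24507 with lower BMPC values. The median change of all regions was 0.08, and the plot of KO levels shows them spread on both sides of the diagonal.

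**Figure D1:**
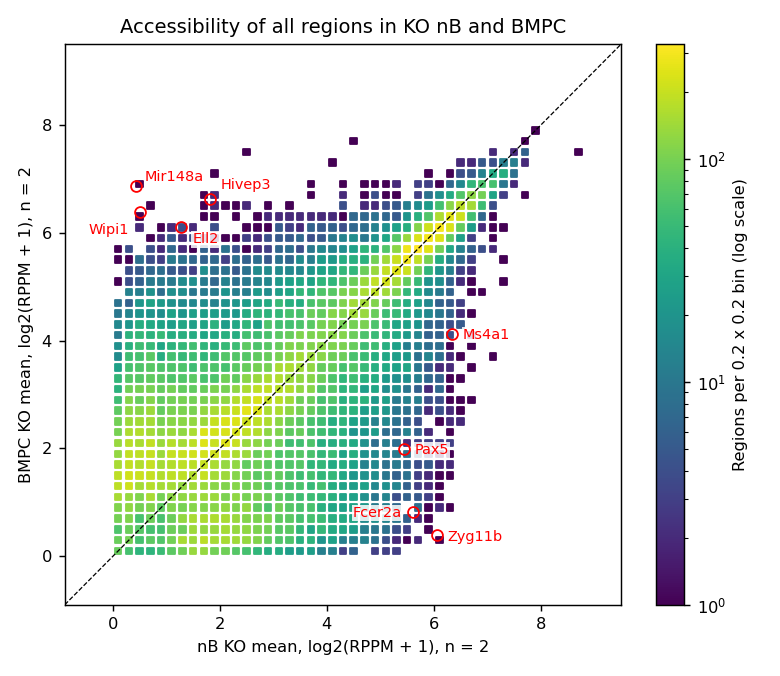
Mean accessibility of each of 66177 regions in nB KO (horizontal) and BMPC KO (vertical), both as log2(RPPM + 1) of the mean of 2 libraries, with color giving the number of regions per bin on a log scale and the dashed line equal levels. The circled Mir148a and Wipi1 regions lie near 0 in nB and near the top in BMPC, and the Zyg11b and Fcer2a regions lie at the opposite corner.

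Opened regions were mostly low in nB KO. Their median accessibility was 0.987 and 0.984 RPPM in the nB KO libraries and 9.35 and 9.33 RPPM in the BMPC KO libraries, with 3.95 to 4.46 RPPM in the GCB KO libraries. In 3580 opened regions (29.4%) both nB KO libraries held at most 3 reads. Closed regions had medians of 10.2 and 10.4 RPPM in nB KO, 6.36 to 7.01 RPPM in GCB KO and 1.34 and 1.12 RPPM in BMPC KO. In 2174 closed regions (19.4%) both BMPC KO libraries held at most 3 reads. The GCB KO mean stood nearer to BMPC than to nB on the log2 scale in 54.8% of opened but in 25.3% of closed regions. Uncalled regions had medians of 5.49 RPPM in nB KO, 7.16 RPPM in GCB KO and 5.71 RPPM in BMPC KO. GCB KO values were thus higher there as well, and the part of this in the 2 shares was not tested.

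Distal regions changed more often than promoters. Of 14332 promoter regions, 11.4% opened and 5.85% closed, and most of the others were strongly accessible at both stages, with medians of 37.7 RPPM in nB KO and 39.8 RPPM in BMPC KO. Of 23479 intronic regions, 21.6% opened and 19.5% closed, and of 23242 intergenic regions 17.9% opened and 22.0% closed. Exonic regions opened in 25.2% and closed in 12.9% of 5124 cases. Farther than 100 kb from the nearest annotated start, closing was the more frequent change, with 29.4% closed and 17.4% opened of 4064 regions.

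CpG content, the number of CpG dinucleotides per 100 bases, went with different shares of promoters that closed. Among promoters under 2 CpG per 100 bases, 20.1% of 2453 closed and 18.1% opened. Among promoters over 5 CpG per 100 bases, 2.19% of 8475 closed and 8.71% opened. The medians of CpG per 100 bases were 1.02 in closed, 1.40 in opened and 1.69 in uncalled regions of all kinds. These are counts over regions, which are not independent of each other, and they carry no test.

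The regions with the largest changes are shown by the genome sequence (mm9) of their central 300 bases, because their letters can be read beside the motif counts given further on. Mir148a, Wipi1 and Ndufs4 are the 3 largest increases and Zyg11b, Lrrc16a and Edn3 the 3 largest decreases, among autosomal regions of different genes. Capitals mark matches on either strand to GGAAGT (PU.1), CAGCTG or CACCTG (E-boxes bound by E2A), ATGCAAAT (octamer) and the IRF repeat of GAAA, any NN and a further GAAA. The Mir148a window holds an octamer and a CAGCTG, those of Wipi1, Ndufs4, Zyg11b and Lrrc16a hold 1 CACCTG each, and that of Edn3 holds none of these words.
Mir148a, chr6:51237806-51238105, plus strand: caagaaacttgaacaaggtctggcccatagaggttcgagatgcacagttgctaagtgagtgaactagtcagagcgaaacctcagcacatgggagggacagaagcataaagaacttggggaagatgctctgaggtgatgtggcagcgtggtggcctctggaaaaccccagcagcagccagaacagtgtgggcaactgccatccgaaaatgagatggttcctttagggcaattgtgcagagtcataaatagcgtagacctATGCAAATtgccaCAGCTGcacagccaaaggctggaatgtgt
Wipi1, chr11:109460453-109460752, plus strand: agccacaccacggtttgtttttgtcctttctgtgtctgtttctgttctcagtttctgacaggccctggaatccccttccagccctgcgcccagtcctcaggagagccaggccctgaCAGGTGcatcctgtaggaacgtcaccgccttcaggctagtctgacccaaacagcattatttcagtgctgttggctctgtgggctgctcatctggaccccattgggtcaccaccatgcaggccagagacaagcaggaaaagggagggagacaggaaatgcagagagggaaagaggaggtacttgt
Ndufs4 (Arl15 intron), chr13:114941342-114941641, plus strand: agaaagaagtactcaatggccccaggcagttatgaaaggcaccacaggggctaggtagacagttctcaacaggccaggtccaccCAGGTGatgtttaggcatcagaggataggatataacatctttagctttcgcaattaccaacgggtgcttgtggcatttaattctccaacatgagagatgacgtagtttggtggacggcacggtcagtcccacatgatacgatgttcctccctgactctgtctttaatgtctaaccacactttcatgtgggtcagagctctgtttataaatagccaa
Zyg11b, chr4:107983379-107983678, plus strand: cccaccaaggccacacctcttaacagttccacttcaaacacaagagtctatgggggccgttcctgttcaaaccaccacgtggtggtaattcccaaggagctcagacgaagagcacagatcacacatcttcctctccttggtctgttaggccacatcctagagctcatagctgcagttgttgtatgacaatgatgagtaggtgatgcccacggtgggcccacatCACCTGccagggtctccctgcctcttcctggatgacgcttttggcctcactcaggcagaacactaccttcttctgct
Lrrc16a, chr13:24322727-24323026, plus strand: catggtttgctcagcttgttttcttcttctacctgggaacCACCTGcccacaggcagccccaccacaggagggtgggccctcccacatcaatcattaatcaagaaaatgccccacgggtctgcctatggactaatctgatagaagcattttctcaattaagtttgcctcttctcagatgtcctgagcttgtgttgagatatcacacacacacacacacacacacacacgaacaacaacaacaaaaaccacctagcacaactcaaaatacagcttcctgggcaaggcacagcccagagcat
Edn3, chr2:174706114-174706413, plus strand: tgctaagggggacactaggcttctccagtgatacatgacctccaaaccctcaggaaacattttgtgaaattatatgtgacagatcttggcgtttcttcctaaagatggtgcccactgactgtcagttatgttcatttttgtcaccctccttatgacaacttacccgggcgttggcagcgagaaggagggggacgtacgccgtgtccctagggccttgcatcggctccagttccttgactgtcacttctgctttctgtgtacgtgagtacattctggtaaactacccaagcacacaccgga

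The largest gain stood upstream of Mir148a, which encodes a microRNA known to promote plasma cell differentiation. At chr6:51237124-51238787, an intergenic region 17214 bp from the Mir148a start, the nB KO libraries measured 0.494 and 0.197 RPPM and the BMPC KO libraries 113 and 117 RPPM. The nB values rested on 3 reads and 1 read, and GCB KO libraries ranged from 18.2 to 27.5 RPPM. The change was 6.44 ± 0.25 (SE) on the log2(RPPM + 1) scale (limma adjusted p = 1.24e-16). The Mir148a promoter region at chr6:51220204-51221634 opened as well, from 1.97 and 2.36 RPPM to 83.8 and 88.3 RPPM (change 4.78 ± 0.20, adjusted p = 5.31e-16). The mature microRNA, from RefSeq (GRCm38.p6), is shown with its seed, bases 2 to 8, in capitals, although accessibility does not measure its level.
mmu-miR-148a-3p: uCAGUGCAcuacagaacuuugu

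The other large gains were distal. An intronic region of Wipi1, which encodes an autophagy protein, rose from 0.658 and 0.197 RPPM to 79.3 and 84.7 RPPM (change 5.88 ± 0.34, limma adjusted p = 1.31e-13). A region inside an intron of Arl15, whose nearest annotated start was that of Ndufs4, rose from 0.494 and 0.787 RPPM to 85.9 and 85.1 RPPM. A region 24881 bp from Fam46c, a gene often mutated in multiple myeloma, rose from 0.329 and 0.394 RPPM to 65.8 and 72.0 RPPM. The remaining members of the 6 largest gains lay in an intron of Pitpnc1, at 69.7 and 70.0 RPPM in BMPC KO, and 88851 bp from Gm7854, at 46.5 and 50.6 RPPM, both from at most 4 reads per nB KO library. Their changes were 5.62 and 5.52. The GCB KO libraries lay between nB KO and BMPC KO, from 2.20 to 6.36 RPPM at Wipi1 and from 25.9 to 36.4 RPPM at Pitpnc1.

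The 6 largest losses reached almost 0 in BMPC. A region at chr4:107983120-107983938, 9424 bp from Zyg11b, fell from 66.6 and 64.6 RPPM to 0.243 and 0.373 RPPM, with 2 reads in each BMPC KO library (change -5.67 ± 0.21, limma adjusted p = 1.24e-16). An intronic region of Lrrc16a, which encodes an actin-capping regulator, fell from 87.8 and 76.6 RPPM to 0.972 and 0.747 RPPM (change -5.48 ± 0.24). A region 119495 bp from Edn3 fell from 47.2 and 49.8 RPPM to 0.121 and 0.187 RPPM, 1 read in each library. The others lay in an intron of Slc17a4, 15167 bp from Lifr, and at chr13:52178922-52179873 with no gene symbol, with changes of -5.35, -5.29 and -5.30. All these regions kept intermediate levels in GCB KO, for example 21.6 to 29.8 RPPM at Zyg11b and 6.36 to 8.81 RPPM at Lrrc16a.

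Promoter regions with the largest gains were those of Evc, Atp9a, Hivep3, Zfp9, Mir148a and Fam162b. At Hivep3, which encodes a zinc finger protein, BMPC KO libraries measured 90.9 and 106 RPPM against 3.29 and 1.77 RPPM in nB KO (change 4.84 ± 0.28). Evc, a ciliary gene, measured 41.3 and 53.6 RPPM against 0.494 and 0.197 RPPM (change 5.17 ± 0.24). Promoter regions with the largest losses were those of Chil4, Gm8369, Fcer2a, Insig2, Rgs13 and Lpp. Fcer2a, which encodes the low-affinity IgE receptor CD23 of resting B cells, fell from 45.9 and 49.2 RPPM to 0.972 and 0.560 RPPM (change -4.79 ± 0.32, limma adjusted p = 1.95e-12). Insig2, a sterol-sensing regulator, fell from 42.3 and 47.4 RPPM to 1.09 and 0.373 RPPM, while its GCB KO libraries ranged from 35.7 to 57.0 RPPM.

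**Figure D2:**
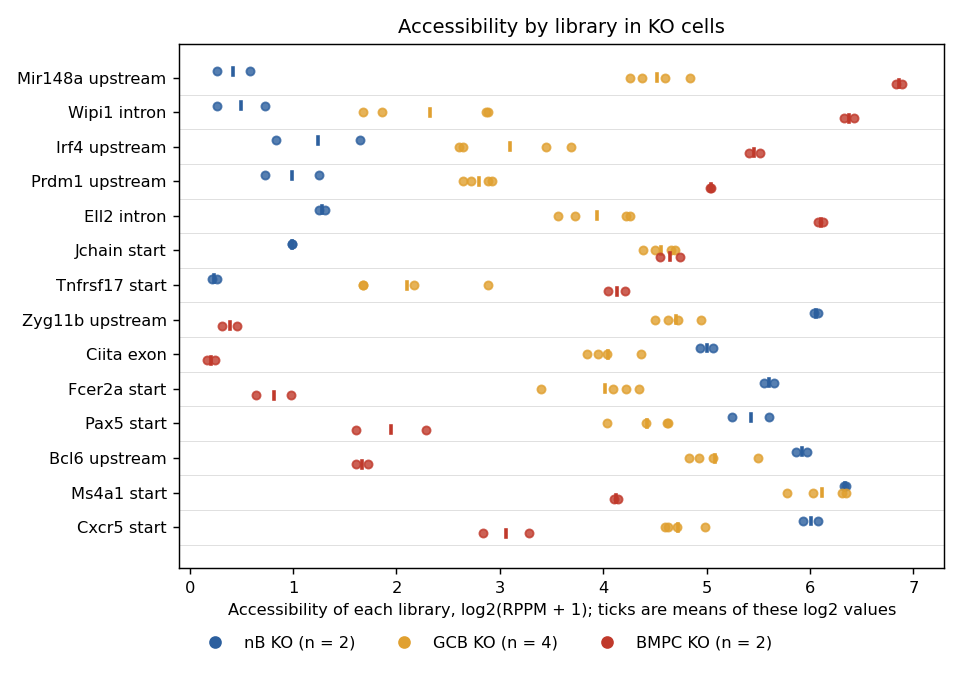
Accessibility as log2(RPPM + 1) in every KO library at 14 regions, with nB in blue (n = 2), GCB in yellow (n = 4), BMPC in red (n = 2) and a tick at each group's mean. The upper 7 regions opened and the lower 7 closed, and all were plotted as called regions. At the Jchain start the range of the GCB points overlaps that of the BMPC points, and at the Ms4a1 start they reach the nB points.

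Among a list of B cell transcription factors, closing was more frequent than over all regions. This list and those that follow were chosen with earlier results of these data known. Their shares therefore describe the listed genes and are not tests. Of 550 regions nearest to 24 such genes, 171 closed (31.1%, against 16.9% of all regions) and 67 opened (12.2%, against 18.4%), and their median change was -0.47 against 0.08 over all regions. The shares of all regions, here and for the other lists, include promoters. Of intronic regions 19.5% closed and 21.6% opened, and of intergenic regions 22.0% and 17.9%. At least 1 region closed near 22 of the genes and at least 1 opened near 16, which genes with many regions meet more readily. The region at or within 1 kb of the start closed for 5 of 24 genes, Pax5, Spib, Id3, Bcl11a and Hhex. Of all promoter regions 5.85% closed. Pax5, the central regulator of B cell commitment, fell at its promoter from 47.7 and 37.0 RPPM to 3.89 and 2.05 RPPM (change -3.48 ± 0.26, limma adjusted p = 1.27e-11), and 13 of its 21 regions closed. Bach2, which restrains plasma cell formation, lost 23 of 47 regions while its promoter, not called, measured 120 and 114 RPPM in nB KO and 88.8 and 78.4 RPPM in BMPC KO. The Bach2 region of largest change, 6654 bp from the start, fell from 27.3 and 34.6 RPPM to 0.850 and 0.560 RPPM. Bcl6, the germinal center regulator, lost 10 of 14 regions, including 1 at 162562 bp from its start that fell from 61.7 and 57.3 RPPM to 2.31 and 2.05 RPPM.

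Other members of this list moved in both directions. Ebf1 had 11 closed and 7 opened regions of 40, Mef2c 15 and 10 of 67, and Foxp1 36 and 12 of 98. At Irf8, which acts in B cells and myeloid cells, 9 of 29 regions closed, yet its region of largest change opened, from 0.494 and 0.787 RPPM to 25.3 and 23.5 RPPM (change 3.96 ± 0.37). Foxo1, Ikzf1, Ikzf3, Pou2af1, Pou2f2 and Nfatc2 each had more opened than closed regions. The promoters of Foxo1, Ets1, Tcf3 and Ikzf1 had differences of -0.11, -0.29, -0.27 and -0.25 and were not called.

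Of 183 regions nearest to 19 genes of the B cell receptor complex and its signaling, 74 closed (40.4%, against 16.9% of all regions). Another 12 opened (6.56%, against 18.4%), and the median change was -0.84. The start region closed for 9 of 18 genes with such a region and opened for none. Of all promoter regions 5.85% closed and 11.4% opened. Closed starts included those of Cd79a, Cd79b, Blk, Cd22, Fcer2a, Ms4a1, Cd72 and Ptpn6. Cd79a and Cd79b, the signaling subunits of the receptor, fell from 38.5 and 36.4 RPPM to 11.1 and 11.6 RPPM and from 30.1 and 31.1 RPPM to 8.87 and 9.15 RPPM. Ms4a1, which encodes CD20, fell from 79.5 and 80.7 RPPM to 16.6 and 16.2 RPPM (change -2.22 ± 0.16, limma adjusted p = 6.86e-12). These starts kept more signal in BMPC KO than the Fcer2a promoter did. The starts that were not called included those of Blnk, Lyn, Plcg2 and Bank1, signaling proteins and adaptors, with differences of -0.06, -0.26, 0.35 and 0.24. The downstream kinase Syk had 3 opened and 2 closed regions of 16, and its promoter, at 77.5 and 72.0 RPPM in nB KO and 38.3 and 37.9 RPPM in BMPC KO, had a difference of -0.95, short of the size required for a call.

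Antigen presentation was the list with the largest share of closed regions. Of 102 regions nearest to 15 genes of MHC class II and costimulation, 52 closed (51.0%, against 16.9% of all regions). Another 7 opened (6.86%, against 18.4%), and the median change was -1.14. Ciita, the master regulator of MHC class II genes, closed at 8 of 9 regions, and its exonic region 18828 bp from the start fell from 29.6 and 32.5 RPPM to 0.121 and 0.187 RPPM (change -4.79 ± 0.27, limma adjusted p = 6.71e-14). Start regions of H2-Aa, H2-Ab1, H2-DMb1, H2-DMb2, H2-Oa and H2-Ob closed, and H2-DMb2 had the largest of these changes, from 99.9 and 102 RPPM to 13.2 and 13.1 RPPM (-2.85 ± 0.16). Cd80, a costimulatory ligand, went the other way. Its promoter opened from 1.81 and 1.97 RPPM to 24.2 and 18.1 RPPM (change 2.92 ± 0.27), and no Cd80 region closed. Cd86, the related ligand, had a closed promoter, with 29.3 and 30.7 RPPM against 9.72 and 5.60 RPPM, and equal numbers of opened and closed regions, 4 each of 13.

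Among homing receptors, 4 of 12 start regions closed, those of Cxcr5, Ccr7 and S1pr4 among them, and none opened. Of all promoter regions 5.85% closed. Of 178 regions near 13 genes, 60 closed (33.7%, against 16.9% of all regions). Another 29 opened (16.3%), near the 18.4% of all regions. Cxcr5, the receptor that guides B cells into follicles, fell at its promoter from 66.6 and 60.0 RPPM to 8.75 and 6.16 RPPM (change -2.94 ± 0.21), and Ccr7, a receptor for T cell zones, fell from 60.9 and 56.7 RPPM to 14.5 and 10.5 RPPM (change -2.17 ± 0.21). Cxcr4, a receptor for bone marrow retention, had 132 and 125 RPPM at its promoter in nB KO and 104 and 104 RPPM in BMPC KO, a difference of -0.29 that was not called. Of its 40 regions 14 closed and 9 opened. Its region of largest change, 61702 bp away, opened from 1.15 and 0.984 RPPM to 40.3 and 37.7 RPPM. Itga4, an integrin subunit, likewise had an opened region 116909 bp from its start at 93.9 and 92.0 RPPM in BMPC KO against 4.61 and 3.35 RPPM in nB KO.

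Regions near regulators of plasma cells and of the unfolded protein response opened more often than all regions. Of 166 regions nearest to 12 genes, 76 opened (45.8%, against 18.4% of all regions). Another 10 closed (6.02%, against 16.9%), and the median change was 1.04. Among 10 start regions only that of Bhlha15 opened, near the share of 11.4% of all promoter regions. Bhlha15, which encodes the secretory cell factor Mist1, rose at its promoter from 18.3 and 15.9 RPPM to 64.5 and 70.4 RPPM (change 1.92 ± 0.17, limma adjusted p = 4.05e-10). Prdm1 had a promoter of 45.2 and 52.9 RPPM in nB KO and 70.3 and 70.4 RPPM in BMPC KO, and its difference of 0.51 was not called. A region 202096 bp from Prdm1 rose from 0.658 and 1.38 RPPM to 31.9 and 31.7 RPPM (change 4.05 ± 0.32). The Irf4 promoter was lower in BMPC, at 38.9 and 39.9 RPPM against 56.9 and 59.8 RPPM, again without a call, while a region 33103 bp away rose from 2.14 and 0.787 RPPM to 44.8 and 41.4 RPPM. Xbp1 rose 1953 bp from its start, from 2.96 and 2.16 RPPM to 52.0 and 44.6 RPPM (change 3.80 ± 0.29). Ell2, an elongation factor that favors the secreted form of antibody mRNA, opened at 8 of 11 regions, with an intronic region at 1.48 and 1.38 RPPM in nB KO and 68.9 and 66.4 RPPM in BMPC KO (change 4.82 ± 0.24).

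In the secretory list 39 of 103 regions opened (37.9%, against 18.4% of all regions) and 10 closed (9.71%, against 16.9%). Of its 15 start regions 3 opened, those of Sec24d, Fkbp11 and Jchain, against 11.4% of all promoter regions. Jchain, which encodes the joining chain of IgM and IgA, rose at its start from 0.987 and 0.984 RPPM to 22.5 and 25.8 RPPM (change 3.66 ± 0.24, limma adjusted p = 1.35e-12). The promoters of Hyou1, Manf, Dnajc3, Pdia4 and Sel1l, chaperone and quality control genes of the endoplasmic reticulum, were between 65.3 and 98.4 RPPM in nB KO and none was called. In the surface and survival list 42 of 124 regions opened (33.9%, against 18.4% of all regions) and 15 closed (12.1%, against 16.9%). Tnfrsf17, which encodes the survival receptor BCMA, rose at its promoter from 0.165 and 0.197 RPPM, 1 read in each nB KO library, to 15.5 and 17.5 RPPM (change 3.89 ± 0.38). Sdc1, which encodes CD138, the antigen used in the sort, opened at 3 of 6 regions, with 0.987 and 1.97 RPPM in nB KO and 51.6 and 55.6 RPPM in BMPC KO at an intronic region. The 3 Cd28 regions all opened.

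**Figure D3:**
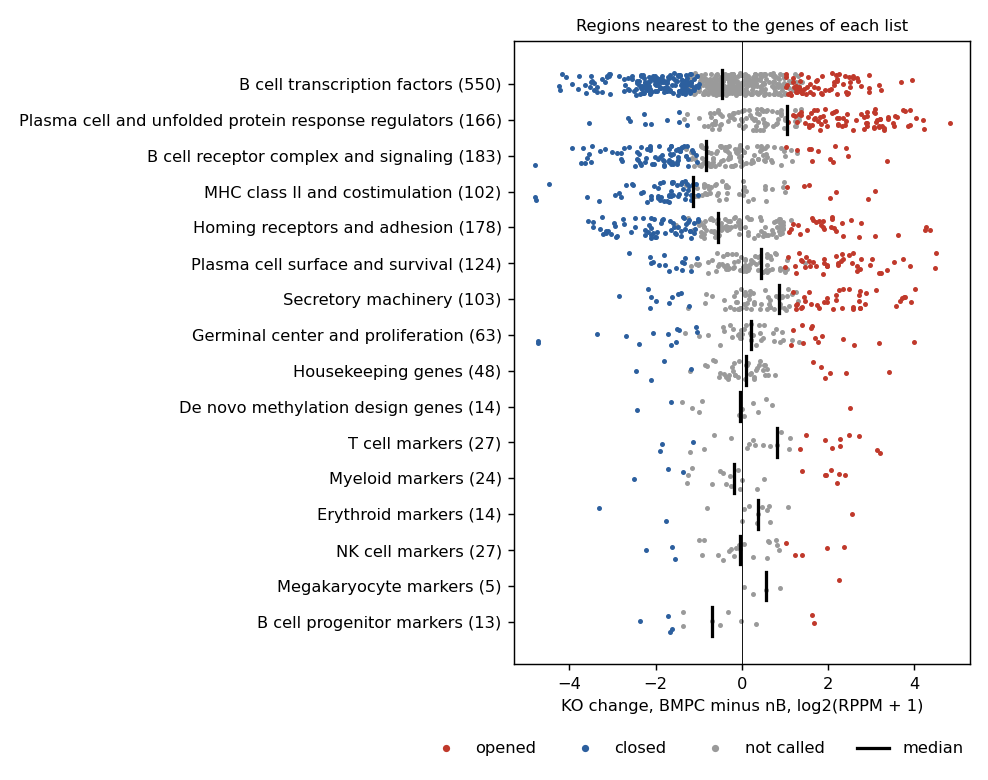
Change from nB KO to BMPC KO on the log2(RPPM + 1) scale (horizontal) of each region, grouped by the list of its nearest gene with the number of regions in parentheses. Red points opened, blue points closed, gray points were not called and black bars are medians, which run from -1.14 for MHC class II and costimulation to 1.04 for plasma cell regulators.

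Of 63 regions near germinal center and proliferation genes 13 opened and 13 closed, 20.6% each, near the 18.4% and 16.9% of all regions. Promoters of Mki67, Top2a and Aurkb, genes of dividing cells, had differences of 0.20, -0.27 and -0.09 and were not called. S1pr2, a receptor that confines germinal center B cells, opened at 4 of 4 regions. Of 48 regions near 10 housekeeping genes, 6 opened (12.5%, against 18.4% of all regions) and 4 closed (8.33%, against 16.9%). None of the 10 promoters was called. The Dnmt3a promoter measured 23.2 and 23.2 RPPM in nB KO and 25.1 and 21.3 RPPM in BMPC KO, and that of Dnmt3b 34.5 and 38.0 RPPM and 45.7 and 41.8 RPPM. The deletion removes catalytic sites and not promoters, so these values do not check it.

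Regions near marker genes of T cells and myeloid cells opened in larger shares than the 18.4% of all regions, and the part of other cells in the results was not tested. Of 27 regions near T cell genes 10 opened (37.0%) and 3 closed (11.1%), with 7 of the opened regions at Tcf7, 2 at Cd4 and 1 at Lck. Of 24 myeloid regions 7 opened (29.2%) and 3 closed (12.5%), with 4 of the opened regions at Cebpe and 3 at Itgam. Erythroid genes had 1 opened and 2 closed of 14 regions, NK genes 5 and 3 of 27, megakaryocyte genes 1 and 0 of 5, and B cell progenitor genes 2 and 4 of 13. The summed accessibility of the T cell list was 255 and 222 RPPM in nB KO and 293 and 275 RPPM in BMPC KO, and that of the myeloid list 138 and 133 RPPM against 185 and 175 RPPM.

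Loci are given here by their number of called regions, an order that favors genes with many regions. Over all regions 18.4% opened and 16.9% closed. The locus with the most opened regions was Zbtb20, which encodes a factor needed for long-lived plasma cells, with 22 of 37 regions opened and 1 closed over 728 kb of chromosome 16. Their summed accessibility rose from 96.2 and 102 RPPM to 387 and 343 RPPM. Next came Fut8, a fucosyltransferase that acts on antibodies, with 20 of 42 opened and 4 closed, and Trib1 with 19 of 28 and none closed. Ankrd55 had 18 of 29 opened and 2 closed, Cacna1d 17 of 35 and 3, and Fndc3a 17 of 32 and 1. The locus with the most closed regions was that nearest to Rprl1, on chromosome 6 between 69217569 and 70408194, a part that holds immunoglobulin kappa variable genes whose like sequences can share reads, with 40 of 53 regions closed and none opened. Its sum fell from 297 and 300 RPPM to 42.6 and 31.5 RPPM. Btg1, an antiproliferative gene of resting lymphocytes, lost 39 of 62 regions, Lpp 39 of 64, Foxp1 36 of 98, Bach2 23 of 47 and Rasgef1b 23 of 33. Opened regions at these genes numbered 0, 1, 12, 3 and 1 in the same order.

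Regions that opened and closed differed in the short sequences they held. Among regions of 400 to 700 bp away from promoters, the word GGAAGT, a core of sites for the ETS factor PU.1, was present in 59.1% of 5233 closed, 38.2% of 12021 uncalled and 35.0% of 4811 opened regions (43.2% of all 65893 regions with sequence). The E-box CACCTG was present in 54.1% of opened, 40.3% of uncalled and 31.9% of closed regions (41.7% of all), and the E-box CAGCTG in 39.3%, 30.1% and 27.8% (32.4% of all). The IRF repeat was present in 18% of opened, 10.5% of uncalled and 9.48% of closed regions (11.4% of all). The octamer ATGCAAAT stood in 8.94% of opened, 4.72% of uncalled and 6.88% of closed regions (5.87% of all). The core of the CTCF motif was most frequent among uncalled regions, being present in 17.8% of uncalled, 5.78% of opened and 3.54% of closed regions (9.16% of all). The shares in parentheses include promoters and regions of every width, unlike the other shares. Within the 400 to 700 bp set as a whole, the CTCF core was present in 11.8% of 22065 regions.

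Within the same set of regions, the E-box CAGCTG had larger shares at larger gains, and CACCTG was not divided by size. Over all regions, 354 gains and 305 losses were larger than 4, and most of them lay outside this set. The printed Mir148a, Wipi1 and Ndufs4 regions were among those left out for their width. The shares above 4 therefore describe a minority of such regions. CAGCTG was present in 37.2% of 2532 regions with gains from 1 to 2, in 40.1% of 1717 from 2 to 3, in 44.4% of 513 from 3 to 4 and in 65.3% of 49 regions above 4 on the log2(RPPM + 1) scale. Among losses of the same sizes it stayed between 27.3% and 28.3%. GGAAGT was present in 57.6%, 59.7%, 61.4% and 62.3% of closed regions of these sizes and in 37.1%, 32.7%, 32.4% and 28.6% of opened regions. The octamer was present in 6.50%, 7.06%, 6.82% and 11.5% of closed regions, the last share being of 122 regions. It was present in 8.10%, 8.91%, 12.1% and 20.4% of opened regions in this order of size. The IRF repeat had no such order, with 16.4%, 20.4%, 19.3% and 8.16% of opened regions, the last share being of 49 regions. For the other motifs searched in the same regions, shares of opened and closed regions were 9.89% and 10.2% for the composite ETS-IRF element, 1.27% and 3.34% for EBF1, 19.2% and 17.2% for TGANTCA (AP-1), 8.25% and 7.24% for TAAAAATA (MEF2), 16.2% and 20% for TGTGGTT (RUNX), 7.40% and 8.91% for TGTTTAC (FOXO), 1.06% and 0.612% for TGACGTGG (XBP1 and ATF6) and 5.01% and 3.69% for GGGCGTG (KLF). A match is a run of letters on either strand, not a measured binding site, the composite element and GGAAGT can share bases, and regions are not independent replicates.

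**Figure D4:**
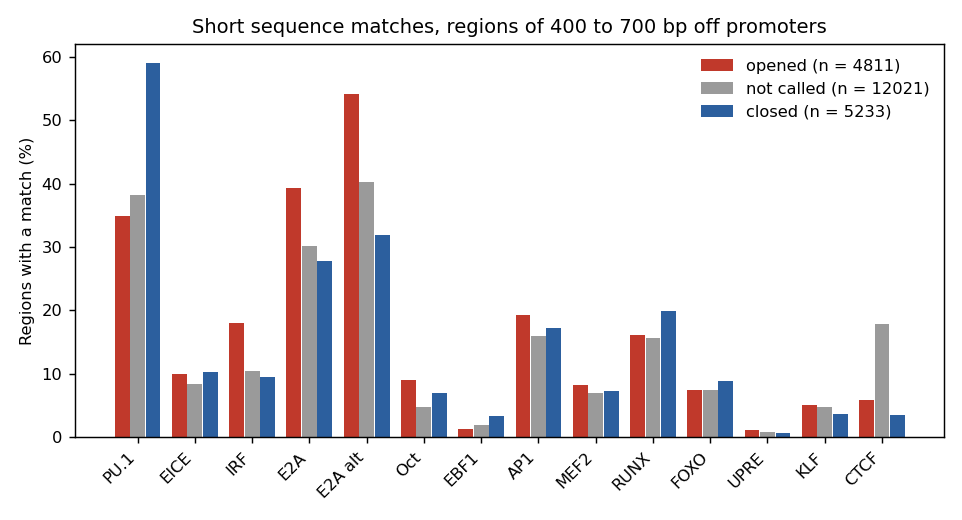
Percentage of regions with at least 1 match to each motif, for opened (red, n = 4811), uncalled (gray, n = 12021) and closed (blue, n = 5233) regions of 400 to 700 bp away from promoters. The PU.1 bar is highest in closed regions at 59.1%, the E2A bars in opened regions at 39.3% and 54.1%, and the CTCF bar in uncalled regions at 17.8%.

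The same step was compared with that in Dnmt3-sufficient cells, to ask which regions depend on de novo methylation in closing or opening. In C cells 11897 regions opened (18%) and 13330 closed (20.1%) by the same rule, from 3 libraries per cell type. Of the 12172 regions opened in KO, 9848 were also called opened in C, 2323 were not called and 1 was closed. Of the 11178 regions closed in KO, 10312 were also called closed in C and 866 were not called. Regions called in C and not in KO numbered 3017 closed, with median differences of -0.89 in KO and -1.34 in C, and 2049 opened, with 0.94 in KO and 1.30 in C. Of these, 451 of the closed and 158 of the opened regions had an unadjusted p under 0.05 for the difference between the genotypes (limma). Among regions called in KO and not in C, 751 of the 2323 opened and 157 of the 866 closed did so. The smaller change lay in the genotype without the call each time, which follows from how these regions were picked. Regions called in KO and not in C had median differences in C of 0.75 for the opened and -0.83 for the closed ones, so a call in 1 genotype alone does not show a difference. The sets are also not matched in the number of libraries.

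The difference between the KO and C changes was tested directly, and no region passed (0% of 66177, limma, by the same 2 limits). The smallest adjusted p was 0.0283, reached by 3 regions, and 3470 regions had an unadjusted p under 0.05. In 2613 of these the KO change lay above the C change and in 857 below it. That imbalance depended on scaling, with 2104 above and 1339 below after TMM scaling and 1340 above and 1054 below after quantile normalization. Tests on recovered reads called 35 regions above and 14 below (edgeR quasi-likelihood test), 129 and 48 (edgeR likelihood ratio test) and 21 and 7 (DESeq2).

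Of the 3 regions with the smallest p, a pair closed less in KO than in C. In an intron of Plcl2, an inositol phosphate signaling gene, at chr17:50713374-50713965, nB libraries measured 41.0 and 42.7 RPPM in KO and 38.0, 45.4 and 45.8 RPPM in C. BMPC libraries measured 9.60 and 7.84 RPPM in KO and 1.56, 1.64 and 2.02 RPPM in C, without overlap. The change was -2.15 ± 0.23 in KO and -4.00 ± 0.19 in C, a difference of 1.86 ± 0.30 (limma adjusted p = 0.0283). At chr14:69536424-69537247, 110098 bp from Stc1, the KO libraries fell from 48.2 and 44.7 RPPM to 13.8 and 16.8 RPPM, and the C libraries from 50.7, 39.4 and 43.6 RPPM to 4.94, 4.38 and 4.36 RPPM (difference 1.48 ± 0.24, adjusted p = 0.0283). In both regions nB libraries of the genotypes overlapped and BMPC libraries did not. Because the regions were picked by their p, this separation adds nothing to the test. The central 300 bases of the Plcl2 region, with the same capitals, hold a pair of CAGCTG words.
Plcl2, chr17:50713520-50713819, plus strand: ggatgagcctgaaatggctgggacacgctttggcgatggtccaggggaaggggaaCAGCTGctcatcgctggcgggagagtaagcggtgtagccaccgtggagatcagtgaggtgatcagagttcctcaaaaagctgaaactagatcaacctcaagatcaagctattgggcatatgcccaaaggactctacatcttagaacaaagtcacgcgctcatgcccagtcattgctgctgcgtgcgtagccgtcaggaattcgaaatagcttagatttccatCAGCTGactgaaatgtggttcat

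The remaining region of the 3 opened in KO and was not called in C. An exonic region of F2rl1, which encodes a protease-activated receptor, at chr13:96282574-96283044, rose from 0 and 0.197 RPPM to 7.17 and 5.79 RPPM in KO. In C it measured 0.731, 0.188 and 0.186 RPPM in nB and 0, 0 and 0.156 RPPM in BMPC, at most 3 reads per library (difference 3.13 ± 0.50, limma adjusted p = 0.0283). A neighboring intergenic region nearest to S100z, at chr13:96264434-96265443 and chosen after its values were seen, rose from 0 in both nB KO libraries to 22.2 and 25.4 RPPM (difference 5.05 ± 0.87, adjusted p = 0.0530). In C it measured 0.156 to 0.910 RPPM in BMPC and 5.12, 0 and 0.186 RPPM in nB, so 1 nB C library stood apart.

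Differences in the opposite direction had larger adjusted p values. The regions with the smallest p were a promoter region of Kdm4d, an intron of Hvcn1 and an intron of Ctif, with adjusted p values of 0.2, 0.224 and 0.224 (limma). At Hvcn1, which encodes a proton channel of B cells, the fall from 133 and 132 RPPM to 12.5 and 12.3 RPPM in KO compared with 122 to 135 RPPM falling to 21.7 to 22.9 RPPM in C. At Kdm4d, a histone demethylase gene, KO values were 23.0 and 23.2 RPPM in nB and 10.4 and 11.9 RPPM in BMPC, against 15.6 to 23.7 RPPM and 25.5 to 29.6 RPPM in C. The only region called opened in KO and closed in C was an intronic region of Mgmt at chr7:144129841-144130539, chosen after its values were seen. Its KO change lay above its C change, as at Plcl2, Stc1 and F2rl1. It went from 2.96 and 3.94 RPPM to 10.7 and 13.4 RPPM in KO and from 6.97 to 7.44 RPPM down to 2.01 to 4.16 RPPM in C (difference 2.71 ± 0.59, limma adjusted p = 0.224). The plot of KO against C changes shows these regions at the edge of a band along the diagonal.

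**Figure D5:**
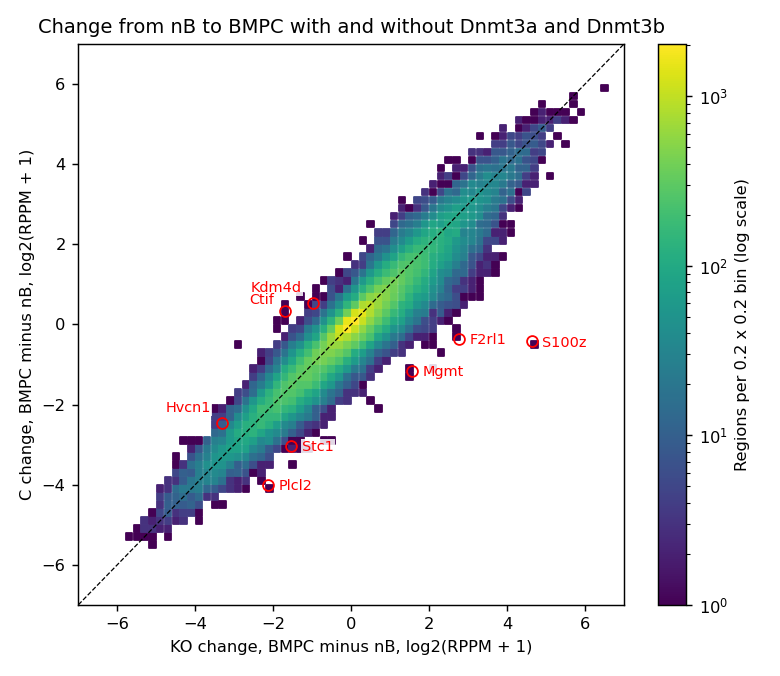
Change from nB to BMPC in KO (horizontal) and C (vertical) cells on the log2(RPPM + 1) scale for 66177 regions, with color giving regions per bin on a log scale and the dashed line equal change. The named regions are those with the smallest p for the difference in each direction, plus S100z and Mgmt, and none of them passed the adjusted threshold of 0.01.

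The sex difference between the nB and BMPC mice was visible on the sex chromosomes. The 9 regions of chromosome Y held 894 and 757 reads in the male nB KO libraries and 3 and 5 reads in the female BMPC KO libraries, and 7 of them closed. An exonic Xist region rose from 0.658 and 0.197 RPPM to 17.7 and 14.2 RPPM. Of 1638 regions on chromosome X, 11.7% opened and 15.9% closed, against 18.6% and 16.9% of regions on the other chromosomes. Leaving out both chromosomes gave 12010 opened and 10938 closed regions.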

How the data were processed

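ATAC-seq libraries of sorted cells were made and processed by the authors. The submitters' notes name Bowtie 1.1.1, Picard 1.127, MACS2 2.1.0.20140616 and edgeR 3.12.1 with build mm9, while the study's methods name other versions of the aligner and the peak caller. The deposited values are RPPM, an RPM scale on which the authors divided the reads in a region by all reads in the union of regions of that library. Because every value was a whole number of reads once the library total was recovered (tolerance 0.01 reads), depths and counts could be rebuilt. Columns of the authors' own comparisons were not used. The file carries gene symbols and positions, and regions were assigned to the gene with the nearest annotated start (59241 of 66177 regions).

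limma 3.58.1 was fitted to log2(RPPM + 1) of all 16 libraries as 6 group means, with a mean-variance trend, and p-values were adjusted by Benjamini-Hochberg across the whole table. A fold change on this scale understates the change of low regions. No low-value filter was applied. Called regions passed limits of 0.01 on the adjusted p and 1 on the size of the log2 change. The spread is that between separate mice and, for GCB, pools. Counts rebuilt from the deposited RPPM were tested with edgeR 4.0.16 and DESeq2 1.42.0 as alternatives. Other alternatives were pseudocounts of 0.1 and 5, a mean of at least 1 RPPM, TMM and quantile scaling, a fit of the compared groups, no trend, an adjusted p of 0.05, no sex chromosomes, and each library left out. All fits were tested on simulated data.

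Named regions were those of fixed gene lists (the start region within 1 kb and the called region of largest change), the 6 largest autosomal changes per direction, over all regions and over promoters, that separated every BMPC KO from every nB KO library, the 6 loci with most called regions per direction and the 3 smallest interaction p per direction. Members and lists were chosen with earlier results of these data known. Sequences came from the mm9 genome (NCBIM37), and 284 regions on unplaced sequence had none. Some items are not reported here.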

Additional observations from a re-analysis of the deposited data

Results flagged for a closer look

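The GCB KO values of 42 of the named regions were examined for a library far from the others, using Dixon's criterion for 4 libraries, which flags about 1 group in 20 by chance. It singled out 1 region, at chr13:52178922-52179873 with no gene symbol, which is among the largest losses from nB KO to BMPC KO. Its GCB KO libraries measured 10.2, 11.0, 11.2 and 17.5 RPPM, and the nB KO and BMPC KO values do not depend on them beyond the shared estimate of spread.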

How the results depend on the processing

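With a pseudocount of 5 RPPM, the KO comparison called 6497 opened and 6260 closed regions and the C comparison 5673 and 6614, since this pseudocount shrinks changes of low regions. All other settings kept each of these counts within 1.5 times the reported value. Leaving out each library in turn gave 9203 to 9354 opened and 8553 to 9296 closed regions in KO, and 10881 to 11181 and 12019 to 13352 in C. Where this left 1 library in a group, the lone library was assumed to vary like the others.

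The test of the difference between KO and C changes moved most. The regions with a KO change above that of C numbered 7 with a pseudocount of 5 RPPM, 21 with the compared groups only, 35, 129 and 21 with the edgeR quasi-likelihood test, the edgeR likelihood ratio test and DESeq2, and 3 at an adjusted p of 0.05. Those below it numbered 2 with the compared groups only and 14, 48 and 7 with these 3 tools. Leaving out libraries gave 0 above, and 0 to 1 below, the latter without nB C replicate 1. On simulated data with 4-fold changes, limma found 51.5% of the inserted differences between genotypes. The edgeR quasi-likelihood test, the edgeR likelihood ratio test and DESeq2 found 83%, 84.5% and 75%. The simulated counts followed the kind of model that edgeR and DESeq2 assume, with the same spread in every region. They therefore do not rank the tools for these data. A limma count of 0 does not show that KO and C changes were equal. The cause of the differing counts was not tested.

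Of 309 named regions followed through every setting, 203 were called and none reversed. In at least 1 setting 23 lost their call and 5 gained one. No paired analysis was possible because the nB and BMPC libraries came from different mice that share no replicate labels. With 2 libraries per KO group from mice that also differed in sex and tissue, small changes and sources other than cell type could not be resolved.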
